A study of Homo sapiens with 12 samples.

Results

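Of the 8 genes chosen as markers of kidney proximal tubule identity, 7 could be measured. Of these, 1 gave a signal in HK-2 cells: PAX8 averaged 10.96 log2 units over the 12 arrays of the series. PAX2, LRP2, CUBN, ANPEP, GGT1 and AQP1 stayed under 5 log2 units on all 12 arrays, in Ra-treated and control cells alike. The genes were found by symbol among the probe sets that the platform annotation ties to exactly 1 gene, and each gene was read by whichever of its probe sets averaged highest. That gave 7 of the 8 genes, out of 19775 genes with such a probe set on the array. HNF4A, the eighth, has no probe set of exactly 1 symbol there and was not analysed here. A gene was called expressed at 5 log2 units or more, a level that 49.8% of all 19775 genes reached by the same choice of probe set. The members nearest to that line were PAX8 above it and GGT1, at 4.23, below it. By these genes the label of a proximal tubule cell was not met in full, though GGT1 and CUBN were read by 1 probe set each. A probe set named for GGTLC1, of the same family as GGT1, averaged 7.26 and is of a type that can cross-hybridise. Whether it also reads GGT1 was not tested, so the low GGT1 value is less certain than the others. The genes are named below by symbol only.

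HK-2 is an immortalised epithelial line of human proximal tubule origin, here 1 line in 1 culture medium. Total RNA was measured on Affymetrix 3′ expression arrays in 4 groups of 3 arrays: cells given Ra for 12 h, control cells at 12 h, cells given Ra for 48 h, and control cells at 48 h. All control cells received vehicle, and treatment began when the wells were close to confluent, on the day after seeding. The sources used here give neither the identity of Ra nor its dose. The labels call the 3 arrays of a group biological replicates but do not say whether they came from separate culture days, so the spread between them may be partly technical. The values are GCRMA log2 expression values made by the authors. The number of arrays limits the precision.

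PAX8 and PAX2 are paired-box transcription factors that set up the nephric lineage in the embryo, and renal epithelial cells can keep PAX8 into adult life. HNF4A is a nuclear receptor that drives the mature proximal tubule programme. LRP2 encodes megalin and CUBN encodes cubilin, the pair of large receptors by which proximal tubule cells take filtered proteins back up from the urine. ANPEP (aminopeptidase N) and GGT1 (gamma-glutamyltransferase) are enzymes of the brush border, and AQP1 is the water channel of the proximal tubule. Cultured proximal tubule cells are known to lose part of this programme.

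The upstream sequences of the expressed gene and of both receptor genes, which stayed under 5 log2 units, are shown first. Each is the 250 bases before a RefSeq transcription start of the human genome build GRCh38.p14, written 5′ to 3′ on the gene's own strand, with each CpG dinucleotide in capitals. PAX8 lies on the minus strand, at chr2:113278922-113279171. LRP2 lies on the minus strand of the same chromosome, at chr2:169362535-169362784, and CUBN on the minus strand at chr10:17129812-17130061.
PAX8 promoter: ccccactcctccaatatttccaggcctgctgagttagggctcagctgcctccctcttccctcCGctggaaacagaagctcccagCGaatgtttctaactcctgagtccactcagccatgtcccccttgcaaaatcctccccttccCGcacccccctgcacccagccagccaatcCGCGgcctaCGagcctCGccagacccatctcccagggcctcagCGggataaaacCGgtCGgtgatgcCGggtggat
LRP2 promoter: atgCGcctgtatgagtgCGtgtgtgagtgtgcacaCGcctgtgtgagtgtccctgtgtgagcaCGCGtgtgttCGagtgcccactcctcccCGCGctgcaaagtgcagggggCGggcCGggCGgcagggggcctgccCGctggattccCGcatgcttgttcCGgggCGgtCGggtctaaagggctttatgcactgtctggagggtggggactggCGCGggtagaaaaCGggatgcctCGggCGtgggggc
CUBN promoter: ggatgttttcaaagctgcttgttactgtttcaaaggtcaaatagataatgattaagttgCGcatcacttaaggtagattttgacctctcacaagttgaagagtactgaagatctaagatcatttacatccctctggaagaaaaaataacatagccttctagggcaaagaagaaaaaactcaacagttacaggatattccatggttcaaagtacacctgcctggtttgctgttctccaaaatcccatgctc

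CpG-rich promoters are common among broadly expressed and developmental genes. The PAX8 window held 11 CpG dinucleotides, the median of 35116 RefSeq windows of the same length, and 50.3% of these held at least as many. The LRP2 window held 21, a number that 30.2% of windows reached. The CUBN window held 1, and 93.9% of all windows held at least as many. All 8 genes had at least 1 window and 12 windows were read, with CpG counts between 1 in CUBN and 26 in 1 of the ANPEP windows. The TATA box letters TATAAA, searched on both strands, were found in the AQP1 window alone among these 12, against 10.7% of all windows. The letters GTTAAT, a half-site of the HNF1 factors that drive many proximal tubule genes, were found on either strand in 1 of the windows of HNF4A and 1 of ANPEP, against 6.23% of all windows. The CpG count did not set PAX8 apart from the genes under 5 log2 units, whose windows lay on both sides of it. These are descriptions of letters in short windows and say nothing of binding in HK-2 cells.

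**Figure D1:**
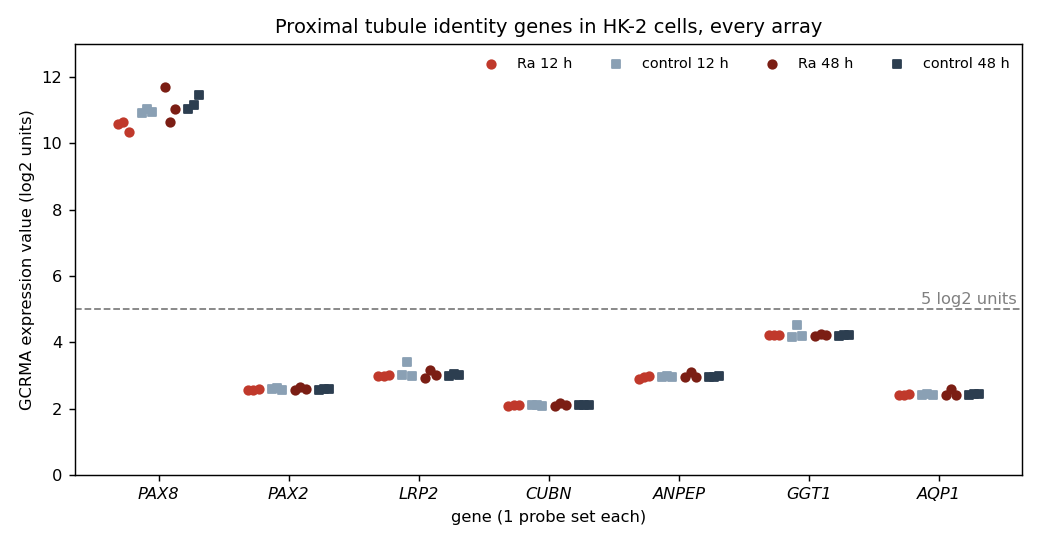
Expression of the 7 measured genes on each of the 12 arrays, in GCRMA log2 units, each by its highest-averaging probe set. Points are single arrays, by group, and the dashed line marks 5 log2 units: all PAX8 points lie above 10 and all points of the other 6 genes lie below 5.

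PAX8 reached 10.58, 10.63 and 10.34 log2 units in Ra-treated cells at 12 h, against 10.91, 11.05 and 10.96 in control cells at 12 h. At 48 h it reached 11.69, 10.66 and 11.04 with Ra, against 11.02, 11.15 and 11.47 in control cells. At 12 h each Ra array lay below each control array. At 48 h the groups overlapped: Ra replicate 1 was the highest of all 12 arrays and Ra replicate 2 the lowest of that time.

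The other 6 genes gave flat, low values. LRP2 averaged 3.04 log2 units over the 12 arrays, with a range of 2.93 to 3.41, and CUBN averaged 2.10, with a range of 2.08 to 2.17. The LRP2 value of 3.41 was that of control 12 h replicate 2, the array that was also highest for GGT1. PAX2, the close relative of PAX8, lay between 2.57 and 2.64. The brush border enzymes ANPEP and GGT1 lay between 2.89 and 3.11 and between 4.14 and 4.51, and AQP1 between 2.41 and 2.58. None of the 6 passed the filter for testing, which asked for 5 log2 units on at least 3 arrays, and no test was made on them. GCRMA shrinks signals near background, so values this low carry little information on changes, and a gene under 5 log2 units may still be transcribed at a level the array does not separate from background.

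Further probe sets of these genes were as low. A second probe set averaged 1.81 for PAX2, 2.60 for LRP2 and 2.00 for AQP1, and ANPEP had further ones at 2.36 and 1.97. GGT1 and CUBN rested on 1 probe set each. For PAX2, CUBN, ANPEP and AQP1 the highest array was the same, Ra 48 h replicate 2. That array stood apart from the other 11 over all probe sets, with an SD of 2.81 against 3.09 to 3.14, a lower quartile of 2.44 against 2.33 to 2.36 and an upper quartile of 6.30 against 7.02 to 7.21. The part of that array's value distribution in the small rises of the low genes was not tested. The 48 h groups varied more than the 12 h groups, with a median gene SD between replicates of 0.431 for Ra and 0.219 for control cells at 48 h, against 0.122 for Ra and 0.124 for control cells at 12 h. RNA from fewer cells of a kind and less RNA per cell cannot be told apart in such samples.

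PAX8 is the gene on which comparisons between groups could be made, and the first asked whether Ra shifted it by 12 h. It averaged 10.52 ± 0.16 log2 units in Ra-treated cells and 10.97 ± 0.07 in control cells (SD, n = 3 each), a level 1.37-fold lower with Ra. The difference was -0.46 ± 0.23 log2 units (SE) in limma's fit of all 12 arrays and did not pass there (adjusted p = 0.688). PAX8 alone of the 7 measured genes was tested, and 0.0299% of all 10050 genes tested were called. The fit of the 6 arrays of 12 h alone, which leaves out the more variable 48 h arrays, gave the same difference with an SE of 0.093 and an adjusted p of 0.0225, beside 13.6% of all genes. With the replicate number as a block in that fit the SE was 0.076 and the adjusted p 0.0071, beside 23.4% of all genes. A two-sided exact permutation test over the arrays, which used no pairing, gave p = 0.1, the smallest that 3 arrays against 3 allow. Groups that did not overlap and were lower with Ra were seen for 16.9% of all genes tested, so the separation of the PAX8 arrays was common among genes.

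PAX8 has 8 probe sets of its own, which makes it possible to ask whether they tell the same story. They overlap in the transcripts they read and share the same RNA, so they are not independent. At 12 h all 8 had a lower mean with Ra, by differences between -0.64 and -0.23 log2 units, and for 6 of them the arrays of the groups did not overlap, against 15.8% of all 17339 probe sets tested. In the fit of the 6 arrays of 12 h, 6 of the 8 fell with Ra, where 4.31% of all probe sets were called lower. In the fit of all 12 arrays 0 of the 8 were called by limma, where 0% of all probe sets were. There 2 of the 8 had an unadjusted p under 0.05. Of all 10050 genes 751 did, a count of genes and not of probe sets, and that over all probe sets was not made.

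The probe set 121_at, designed on another PAX8 sequence record, showed the 12 h difference with the least spread. It reached 10.10, 10.06 and 9.97 log2 units with Ra, against 10.57, 10.53 and 10.54 in control cells. Its difference in the fit of 6 arrays was -0.51 ± 0.07 log2 units (SE, adjusted p = 0.0132). The 2 probe sets that did not pass that fit were 213917_at, with a difference of -0.23 ± 0.15 (adjusted p = 0.365), and 221990_at, with -0.41 ± 0.16 (adjusted p = 0.156). Same-numbered Ra and control arrays gave a lower value with Ra in 3 of 3 pairs for 7 of the 8 probe sets and in 2 of 3 for 213917_at. The calls of the 6-array fit needed the arrays together: without any one of 5 of them, the exception being Ra replicate 3, the chosen probe set no longer passed (adjusted p between 0.0703 and 0.085), and 0 to 2 of the 8 did. Without Ra replicate 3, 5 passed.

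**Figure D2:**
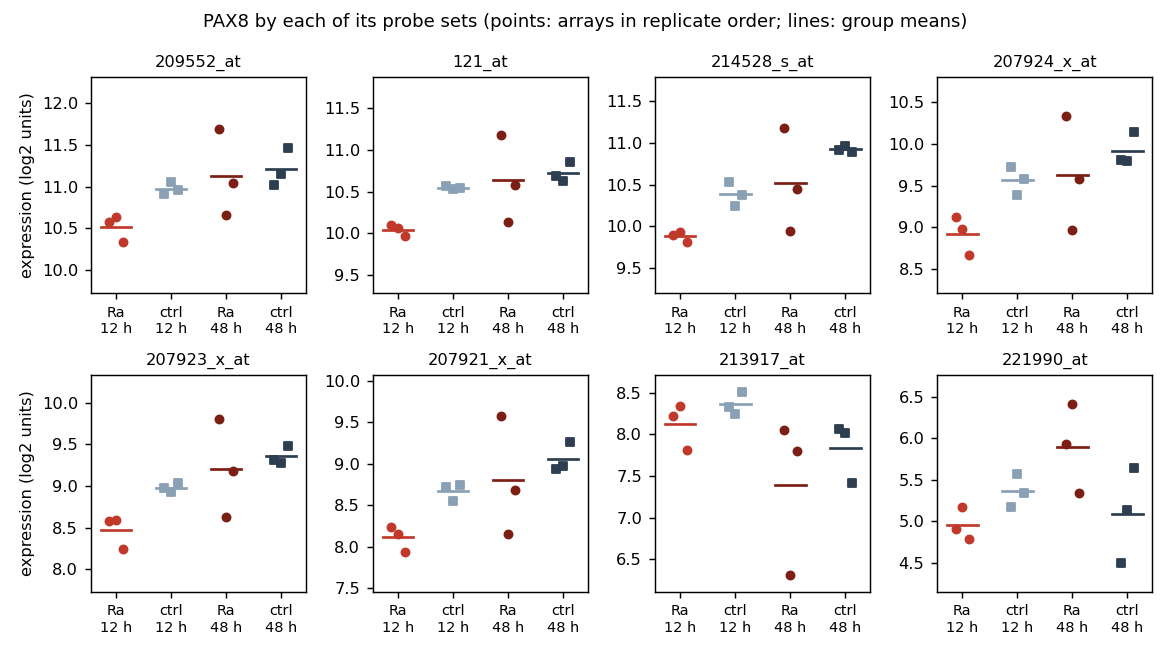
PAX8 by each of its 8 probe sets, in log2 units, with 1 point per array in replicate order and a line at each group's mean. All panels span the same number of log2 units: at 12 h the Ra points lie below all control points in 6 of the 8 panels, and at 48 h the Ra and control points overlap in all 8 panels.

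At 48 h no PAX8 difference with Ra was resolved. It averaged 11.13 ± 0.52 log2 units in Ra-treated cells and 11.21 ± 0.23 in control cells (SD, n = 3 each), and the difference was -0.08 ± 0.23 log2 units (SE, limma, adjusted p = 0.822; two-sided exact permutation p = 0.9). PAX8, the 1 measured gene that was tested, was not called, beside 12.6% of all genes called. Of its 8 probe sets 0 were called, beside 10.4% of all probe sets. Of the 8, 1 had an unadjusted p under 0.05. Of all 10050 genes 3352 did, and the count over all probe sets was not made. The sign depended on single arrays: without Ra 48 h replicate 2 the difference was 0.15 log2 units (adjusted p = 0.601), and without control 48 h replicate 3 it was 0.043 (adjusted p = 0.924). The highest value of the 12 arrays was that of Ra 48 h replicate 1 for 6 of the 8 probe sets.

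The probe sets parted at 48 h. For 7 of them the mean was lower with Ra, and for 221990_at it was higher, at 5.93, 6.41 and 5.34 log2 units with Ra against 4.50, 5.14 and 5.64 in control cells. Its difference of 0.80 ± 0.32 (SE) did not pass (adjusted p = 0.113), and its groups overlapped. The probe set 213917_at had 1 low Ra array, at 8.05, 6.31 and 7.81 with Ra against 8.07, 8.01 and 7.42 in control cells, the low value being that of replicate 2. Over the 12 arrays the 5 other probe sets correlated with the chosen one at Pearson's r of 0.904 to 0.974, while 213917_at did so at 0.07 and 221990_at at 0.353. Without Ra 48 h replicate 2, r over the 11 arrays was -0.30 for 213917_at and 0.715 for 221990_at. These correlations describe probe sets read from the same 12 RNAs. The antisense gene PAX8-AS1, which overlaps PAX8 on the opposite strand, stayed between 2.25 and 2.51 log2 units on all arrays by its 3 probe sets.

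**Figure D3:**
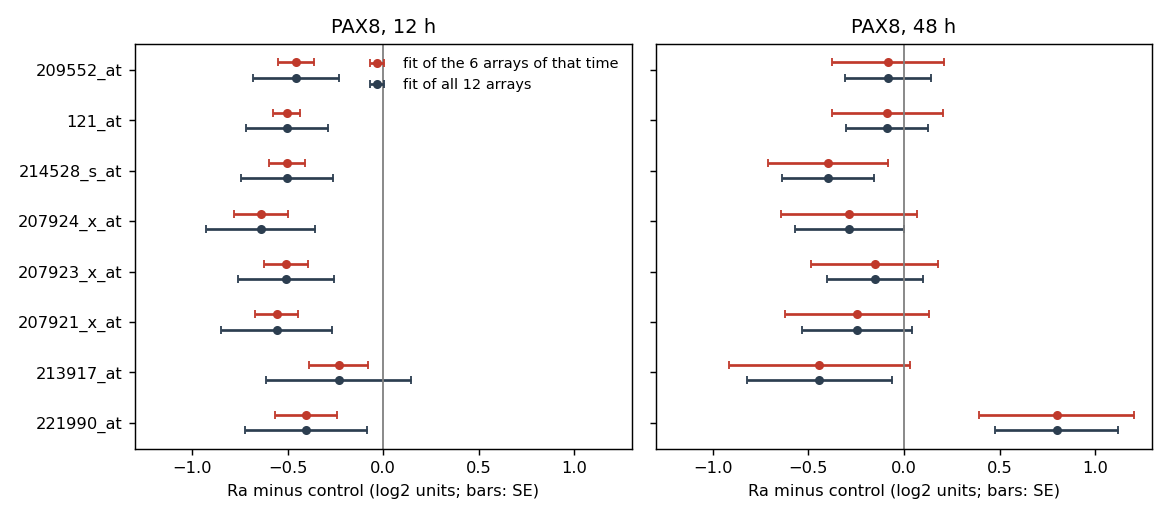
Differences in PAX8 between Ra and control cells (log2 units; points: difference, bars: SE) for each of the 8 probe sets at 12 h and 48 h, from the fit of the 6 arrays of that time (red) and of all 12 arrays (dark blue). At 12 h all 8 points lie between -0.64 and -0.23, and at 48 h all but the 221990_at point, at 0.80, lie below 0.

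Whether the Ra difference itself changed between the times was tested as an interaction in the fit of all 12 arrays. The 48 h difference minus the 12 h difference was 0.38 ± 0.32 log2 units (SE) and did not pass (adjusted p = 0.538), beside 0.0199% of all genes called. Without Ra 48 h replicate 2 it was 0.61 ± 0.26 and did not pass either (adjusted p = 0.157), beside 3.18% of all genes called in that fit of 11 arrays. PAX8 is therefore not shown to differ between the times in its response to Ra.

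Time in culture was compared within each treatment. In control cells PAX8 was higher at 48 h than at 12 h by 0.24 ± 0.23 log2 units (SE, limma, adjusted p = 0.493), where 19.5% of all genes were called, and in Ra-treated cells by 0.61 ± 0.23 (adjusted p = 0.251), where 0% were. The exact permutation tests gave p = 0.2 in control cells and p = 0.1 with Ra. Neither passed. In the fit of the 6 control arrays, 2 of the 8 probe sets rose by 48 h, 214528_s_at by 0.54 ± 0.11 log2 units (adjusted p = 0.0128) and 207923_x_at by 0.38 ± 0.11 (adjusted p = 0.0453), beside 30% of all probe sets. In the fit of all 12 arrays 0 of the 8 were called in control cells, beside 17.2% of all probe sets. With Ra 0 were called, beside 0%. An unadjusted p under 0.05 was found for 1 and 7 of the 8, and for 3400 and 1562 of all 10050 genes. The 8 probe sets read the same gene, and the count over all probe sets was not made. The same arrays enter these comparisons and those with Ra.

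The genes whose values over the 12 arrays were most like PAX8 were LRRC61 (Pearson's r = 0.931), STK39 (0.926), a serine/threonine kinase that acts on cation-chloride cotransporters, and ARNT (0.9), the partner of the aryl hydrocarbon receptor and of the hypoxia-inducible factors. Without Ra 48 h replicate 2 they remained the first 3, with r = 0.968 for LRRC61, 0.949 for ARNT and 0.923 for STK39 over 11 arrays. LRRC61 had a difference with Ra of -0.71 log2 units at 12 h and -0.11 at 48 h. The arrays share their RNA and processing across all genes, and the likeness is a description.

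Related genes were read through lists that are wider than the proximal tubule programme. Other PAX genes, other aquaporins, clathrin chains and vimentin are among them, so counts over all lists do not describe proximal tubule genes alone. The lists held 123 genes in 9 lists, of which 112 had a probe set of 1 symbol and 46 passed the filter. Of all 19775 genes with such a probe set, 10050 passed it. The lists differed widely in how many genes gave signal. Among the endocytic partners of megalin and cubilin, all 12 genes with a probe set passed the filter. Whether those genes are specific to the proximal tubule was not tested. Of the aquaporins other than AQP1, 0 of 9 did, the highest single value being 4.81 for AQP2. Of 25 proximal transporters 7 passed, of 17 genes of proximal metabolism 4 did, and of 14 brush border genes 5 did.

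**Figure D4:**
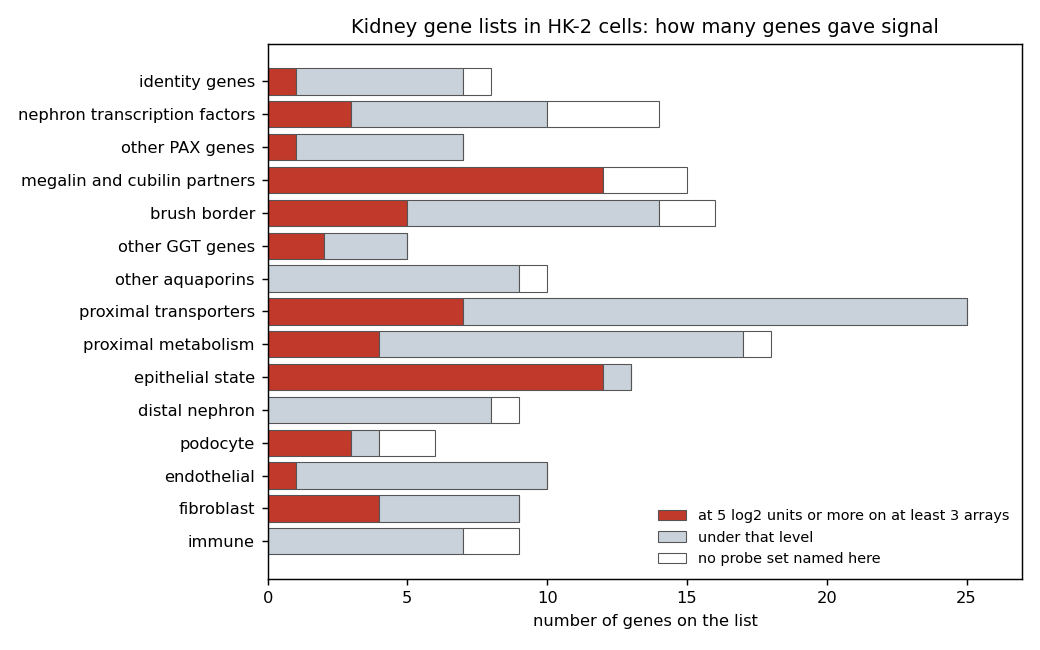
Number of genes of each list that reached 5 log2 units on at least 3 arrays (red), stayed under that level (grey) or had no probe set named here (white). The bars for megalin and cubilin partners and for epithelial state are mostly red, with 12 genes each, while those for aquaporins, distal nephron and immune markers hold 0.

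Among the nephron's transcription factors other than the 8 genes, 3 of 10 passed the filter: SALL1 (mean 8.80 log2 units), a zinc finger factor of nephron progenitors, LHX1 (6.18), a LIM homeodomain factor of the early nephron, and HNF4G (5.47), the paralogue of HNF4A. The early kidney factors SIX2, EYA1, OSR1 and WT1 were under the filter, with means between 2.23 and 2.85. Of the 7 other PAX genes, 1 passed, PAX6, known for the eye and the endocrine pancreas, with a mean of 8.67. PAX6 was at 9.20, 8.81 and 9.40 with Ra against 8.72, 8.28 and 8.60 in control cells at 12 h. Its difference of 0.61 ± 0.29 log2 units did not pass (adjusted p = 0.688), nor did it in the fit of 6 arrays (adjusted p = 0.0558). With the replicate number as a block in the fit of 6 arrays PAX6 passed (adjusted p = 0.00688), and it was higher with Ra in 3 of 3 same-numbered pairs.

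The adaptors of receptor-mediated uptake gave signal although neither receptor did. The clathrin chains CLTC and CLTA, the adaptor subunit AP2M1 and the recycling GTPase RAB11A averaged 13.64, 12.99, 12.94 and 11.93 log2 units. DAB2, the adaptor that binds the megalin tail, averaged 7.65, the receptor chaperone LRPAP1 averaged 8.99, and CLCN5, the endosomal chloride transporter mutated in Dent disease, averaged 6.09. In the brush border list DPP4, a dipeptidyl peptidase, averaged 11.28, and the scaffolds PDZK1, EZR and NHERF1 averaged 10.06, 12.22 and 8.78, while MME, ACE, ALPL and VIL1 had means between 2.42 and 2.65. Of the other gamma-glutamyltransferase genes, GGTLC1 averaged 7.26 and GGT7 6.47. The GGTLC1 probe set is of a type that can cross-hybridise, and near-identical members of that family cannot be told apart by it.

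Of the transporters, SLC4A4, the basolateral bicarbonate exit of the proximal tubule, averaged 10.25 log2 units, as did the efflux pump ABCC4, while SLCO4C1 averaged 10.23 and ABCB1 9.71. SLC3A1, a subunit of the apical carrier of cystine and dibasic amino acids, averaged 8.29, while its partner SLC7A9 averaged 1.79. The basolateral amino acid carrier SLC7A7 averaged 7.80. Of the 18 transporters under the filter, the phosphate carrier SLC34A1, the glucose carriers SLC5A2 and SLC5A1, and the organic ion carriers SLC22A6, SLC22A8 and SLC22A2 had means between 2.17 and 3.17. SLC6A19, the neutral amino acid carrier, gave 6.27 on Ra 48 h replicate 2, the array that stood apart, and at most 2.88 on the other 11. Of metabolic genes, CA2 (carbonic anhydrase 2), MIOX (myo-inositol oxygenase, a kidney enzyme) and GATM (the first enzyme of creatine synthesis) averaged 9.95, 9.09 and 7.96, while the gluconeogenic PCK1, FBP1 and G6PC1 had means between 1.89 and 2.81. Of the intermediate filament genes, VIM (vimentin) averaged 14.50 and KRT18 (keratin 18) 13.12, and the surface proteins CD24 and EPCAM averaged 13.51 and 13.04.

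With Ra at 12 h, 0 of the 46 related genes passed limma's fit of all 12 arrays. An unadjusted p under 0.05 was found for 751 of all 10050 genes and for 5 of the 46. In the fit of the 6 arrays of 12 h, 8 passed, with 4 higher and 4 lower, beside 7.34% of all genes called higher and 6.25% called lower. The transcription factors LHX1 and HNF4G rose by 1.01 ± 0.23 and 0.79 ± 0.18 log2 units (SE, adjusted p = 0.0278 and 0.0326). LHX1 was at 7.29, 6.84 and 7.37 with Ra against 6.06, 5.80 and 6.59 in control cells. MIOX rose by 0.60 ± 0.14 and the adhesion protein EPCAM by 0.34 ± 0.07. The carnitine carrier SLC22A5, 1 of the 4 counted as lower, was at 4.83, 4.99 and 4.91 with Ra against 5.62, 5.43 and 5.94 in control cells. Apart from Ra 48 h replicate 3, at 5.16, only the control arrays of 12 h brought it past the filter, so its values are a description and its call is no test. ABCB1 fell by 0.44 ± 0.07, CD24 by 0.42 ± 0.05 and the endocytic recycling protein EHD1 by 0.39 ± 0.09. With the replicate block in that fit 12 of the 46 passed, beside 23.4% of all genes: the 8 above and PAX6, DPP4 (0.38, adjusted p = 0.0127), MYO6 (0.53, adjusted p = 0.0134) and CLTA (-0.16, adjusted p = 0.0471). The median difference of the 46 genes was 0.01 log2 units, as was that of all 10050 genes.

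With Ra at 48 h, 7 of the 46 related genes passed the fit of all 12 arrays, 5 lower and 2 higher, beside 9.56% of all genes called lower and 3% called higher. In the fit of the 6 arrays of 48 h alone 0 of the 46 passed, where 0% of all genes did. In that fit 1748 of all 10050 genes and 12 of the 46 had an unadjusted p under 0.05. Without single arrays of 48 h the 12-array count of 7 became 11 (Ra replicate 1), 9 (Ra replicate 2), 4 (Ra replicate 3), 3 (control replicate 1), 2 (control replicate 2) and 9 (control replicate 3). Without Ra replicate 2, 19.3% of all genes were called. The 12-array calls at 48 h rest on a spread shared with the less variable 12 h arrays. The median difference of the 46 genes was -0.09 log2 units, against -0.20 for all genes. That shift of all genes was 0.0096 without Ra 48 h replicate 2, 0.013 with quantile normalization and 0.049 with the arrays centred on their medians. The split of all genes called moved with it: 961 were lower and 301 higher in the 12 arrays as deposited, 817 lower and 1126 higher without Ra 48 h replicate 2, 1460 lower and 1553 higher with quantile normalization, and 1285 lower and 1578 higher with centred arrays.

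ENPEP, the brush border aminopeptidase A and a relative of ANPEP, had the clearest separation. It was at 8.25, 8.17 and 8.52 log2 units with Ra against 9.87, 9.90 and 9.89 in control cells at 48 h, a level 2.97-fold lower. The difference was -1.57 ± 0.18 (SE, adjusted p = 0.00445, and 0.191 in the fit of 6 arrays), and a second ENPEP probe set gave -1.63. MIOX fell by 1.26 ± 0.23 (adjusted p = 0.0126), at 9.08, 8.50 and 8.68 with Ra against 10.30, 10.17 and 9.56 in control cells. The MIOX call was lost without control 48 h replicate 1 (adjusted p = 0.0574) or replicate 2 (0.068), while ENPEP passed whichever of the 12 arrays was left out. For both genes each Ra array lay below each control array, which was so for 18.6% of all genes.

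Of the 12 endocytic genes 2 fell at 48 h, beside 9.56% of all genes called lower. Whether the list held more called genes than that share was not tested. RAB5A, the GTPase of early endosomes, fell by 0.90 ± 0.21 log2 units (SE, adjusted p = 0.0236), and MYO6, the motor that carries endocytic vesicles inward, had a difference of -1.19 ± 0.33 (adjusted p = 0.0388). MYO6 was at 8.44, 7.04 and 8.02 with Ra against 9.35, 9.14 and 8.58 in control cells. Without Ra 48 h replicate 2, which holds the lowest of these values, its difference was -0.79 and did not pass (adjusted p = 0.0571). The MYO6 call held only when the array left out was Ra 48 h replicate 1 or control 48 h replicate 3. That of RAB5A was lost without Ra 48 h replicate 3 (adjusted p = 0.0505), control 48 h replicate 1 (0.1) or control 48 h replicate 2 (0.0938). DAB2 had a difference of -0.85 ± 0.28 and did not pass (adjusted p = 0.0635). Its 3 further probe sets were lower with Ra too, by differences of -0.86 ± 0.26, -0.95 ± 0.23 and -1.07 ± 0.28 (SE). The 2 further MYO6 probe sets had differences of -1.83 ± 0.56 and -0.615 ± 0.35, and the second RAB5A probe set had one of -1.06 ± 0.25.

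CDH1, the epithelial cadherin, fell by 1.48 ± 0.43 log2 units (SE, adjusted p = 0.0419), but its groups overlapped, at 6.77, 5.34 and 5.93 with Ra against 8.42, 7.35 and 6.72 in control cells, and without Ra 48 h replicate 2 it did not pass (adjusted p = 0.0892). Of the 12 arrays, Ra 48 h replicate 1 and control 48 h replicate 3 were the ones whose omission left the CDH1 call in place. CDH6, a cadherin of the developing proximal tubule, rose by 1.57 ± 0.31 (adjusted p = 0.0145), at 12.91, 12.55 and 13.16 with Ra against 10.46, 11.33 and 12.11 in control cells, and lost its call without control 48 h replicate 2 (adjusted p = 0.0691). SALL1 rose by 1.85 ± 0.32 (adjusted p = 0.0103), a level 3.6-fold higher, at 9.49, 8.59 and 9.94 with Ra against 6.89, 7.81 and 7.77 in control cells. SALL1 passed whichever of the 12 arrays was left out. The 5 further CDH6 probe sets and the second SALL1 probe set had differences of the same sign.

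**Figure D5:**
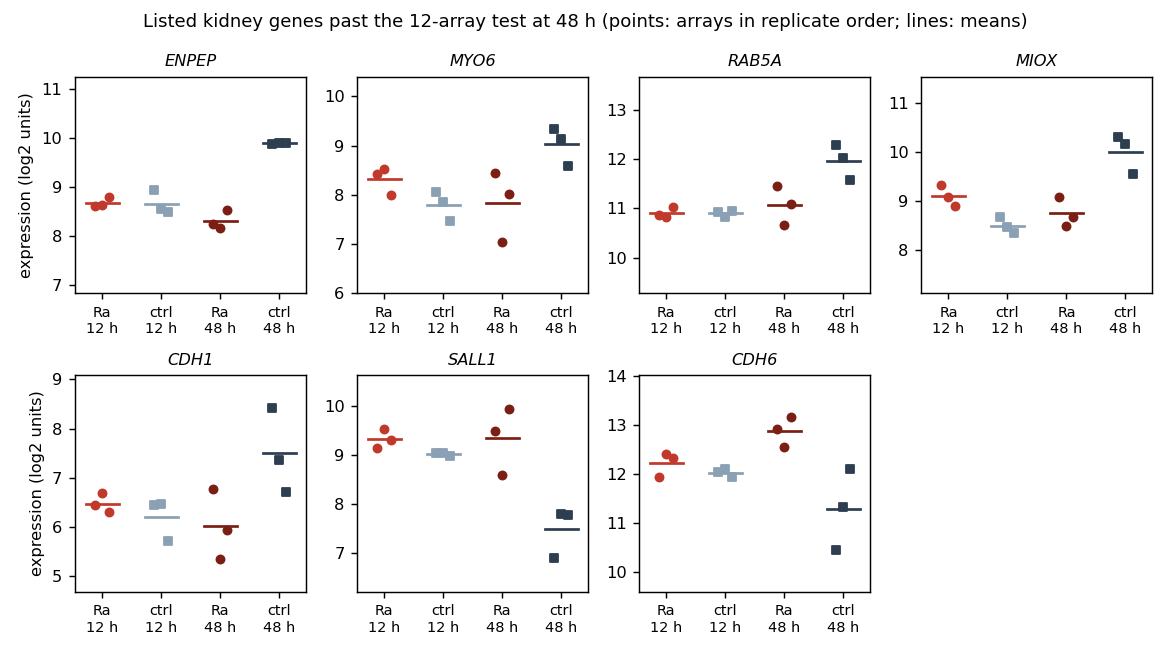
Expression (log2 units; points: arrays in replicate order, lines: group means) of the 7 related genes past the 12-array test at 48 h. ENPEP, MYO6, RAB5A, MIOX and CDH1 have Ra means below the control means at 48 h, and SALL1 and CDH6 have Ra means above them.

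The same control arrays at 48 h enter the comparison over time in control cells, so the following values are not independent of those above. In control cells 14 of the 46 related genes passed between 12 h and 48 h, 6 higher and 8 lower at 48 h, beside 9.37% of all genes called higher and 10.1% called lower. The 8 include SLC22A5, whose call is no test here either. ENPEP was higher at 48 h by 1.22 log2 units (adjusted p = 0.00239), MIOX by 1.51 (adjusted p = 0.00257), MYO6 by 1.24 (adjusted p = 0.0229) and RAB5A by 1.06 (adjusted p = 0.00673), while SALL1 fell by 1.53 (adjusted p = 0.00842). In Ra-treated cells 0 of the 46 passed between the times, beside 0% of all genes. The unadjusted p was under 0.05 for 1562 of all 10050 genes and for 10 of the 46. There ENPEP differed by -0.37 log2 units (adjusted p = 0.331), MIOX by -0.35 (adjusted p = 0.446) and SALL1 by 0.01 (adjusted p = 0.986). The interaction of Ra and time, which tests the contrast between these series, called 0 of the 46, with an adjusted p of 0.0583 for ENPEP and for MIOX. It gave an unadjusted p under 0.05 for 1933 of all 10050 genes and for 15 of the 46. Without Ra 48 h replicate 2 it called 6 of the 46, beside 3.18% of all genes: ENPEP (adjusted p = 0.0339), MIOX (adjusted p = 0.0356), SALL1, ABCB1, EHD1 and SOX9.

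Markers of other cell types were read beside these lists. Of the markers with a probe set, 0 of 8 distal nephron and 0 of 7 immune genes passed the filter. Of 4 podocyte markers 3 did, with PTPRO at a mean of 13.12 log2 units and the slit protein NPHS1 at 2.69, of 10 endothelial markers 1 did, CLDN5 at 5.08, with PECAM1, CDH5 and VWF under 5, and of 9 fibroblast markers 4 did, with LUM at 9.55 and DCN at 9.33 but PDGFRA and PDGFRB at 2.76 and 2.42. The log2 values of the 4 fibroblast genes, added up per array, came to 31.24 to 35.45 at 48 h in Ra-treated cells and 31.15 to 34.90 in control cells. Such a sum is not a level of expression. Within that sum the signs differed: COL1A1, a collagen chain, had a difference of -1.02 ± 0.39 (SE, adjusted p = 0.0922) with every Ra array below every control array, and DCN, the matrix proteoglycan decorin, had one of 0.88 ± 0.47 (adjusted p = 0.207). For the 3 podocyte genes the sum was 25.89 to 26.53 with Ra and 25.53 to 27.19 in control cells. Of the 8 marker genes tested, limma called 0 with Ra at 12 h and 0 at 48 h, beside 0.0299% and 12.6% of all genes. Of the 8, 0 and 1 had an unadjusted p under 0.05, beside 751 and 3352 of all 10050 genes. So few genes decide little, and the part of these markers in the results was not tested.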

How the data were processed

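Total RNA of 12 HK-2 samples was hybridised to Affymetrix 3′ expression arrays. Group, time and replicate number came from the labels. The authors made the deposited log2 values with GCRMA, per the submitters' processing notes. GCRMA corrects background by probe sequence, normalizes arrays and summarises probe sets. The sources used here do not give its version or which arrays it normalized together. Of 54675 probe sets, 41097 had 1 gene symbol, 1801 several, and 11777 were unnamed in the platform annotation. RefSeq numbers changed 0 symbols. No 2 arrays held identical values (0 pairs).

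Probe sets with 5 log2 units on at least 3 arrays were tested (17339), 1 per gene by the highest mean (10050 genes). limma 3.58.1 in R 4.3.3 fitted a mean per group over 12 arrays (8 residual degrees of freedom) with variances moderated by an intensity trend, and p-values were adjusted by Benjamini-Hochberg, with a threshold of 0.05. Fits of the 6 arrays compared were the alternative, besides other filters, scalings, weights, a replicate block and leaving out arrays. A fit with 1 row per probe set served PAX8. The code was tested on simulated data. Plots used matplotlib 3.10.9 in Python 3.11.15.

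The genes, lists and naming rule were chosen with earlier results of these data known. Named are all 8 genes, the 3 genes most like PAX8, up to 4 genes of highest mean per list and up to 3 called genes per list. Further list genes are named as examples, chosen after their values were seen. After subtracting group means, Ra and control arrays of one number correlated at 0.182, 0.421 and 0.344 at 12 h, all over 0.1. The replicate number was therefore used as a block in alternative fits. The labels state no pairing, and the main fit uses none. At 48 h the correlations were 0.301, -0.219 and 0.097. Promoter sequences came from RefSeq (GRCh38.p14).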

Additional observations from a re-analysis of the deposited data

Results flagged for a closer look

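For 3 of the 7 related genes past the test of all 12 arrays at 48 h, the Ra arrays changed sides of the control mean. For MYO6, MIOX and CDH1 every Ra array lay above the control mean at 12 h and below it at 48 h. The 7 were picked by their 48 h difference, which all but fixed the 48 h side of this rule and gives it no weight. Related genes that did not pass, such as EPCAM, HNF4G, OCRL and KRT19, also met this rule. Its share of all genes was not counted. The 48 h difference minus the 12 h difference was -1.72 ± 0.47 log2 units for MYO6 (SE, limma adjusted p = 0.119), -1.86 ± 0.33 for MIOX (adjusted p = 0.0583) and -1.75 ± 0.60 for CDH1 (adjusted p = 0.159). The difference was tested as an interaction, and 0 of the 3 passed. Ra 48 h replicate 2, the array that stood apart, held the lowest Ra value of that time for all 3 genes, at 7.04, 8.50 and 5.34. Without it the interaction was -1.33 ± 0.35 for MYO6 (adjusted p = 0.0627), -1.73 ± 0.30 for MIOX, which passed (adjusted p = 0.0356), and -1.41 ± 0.59 for CDH1 (adjusted p = 0.157). PAX8 did not meet the rule, with Ra arrays at 48 h on both sides of the control mean.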

How the results depend on the processing

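The count of 1 expressed gene of 7 held under all alternatives except a threshold of 4 log2 units, where GGT1 joins and the count is 2. PAX8 was lower with Ra at 12 h in all alternatives. It passed with array weights (-0.41), in the fit of 6 arrays (-0.46) and there with the replicate block (-0.46). Of all 10050 genes 2366, 1366 and 2351 were called in these settings. Leaving out 1 array gave -0.52 to -0.37 and 0 calls. Its 48 h sign turned with quantile normalization (0.093), centred arrays (0.17), the 5-array fit (0.15) and probe set 221990_at (0.80), and leaving out 1 array gave -0.37 to 0.15. The interaction turned with 213917_at (-0.21). Over time in control cells 213917_at (-0.53) and 221990_at (-0.27) turned the sign, and with Ra 213917_at did (-0.74). PAX8 rose over time with Ra and was called under quantile normalization (0.80), centred arrays (0.86) and array weights (0.57), settings whose counts over all genes are given below. The cause was not tested. PAX8 probe sets called at 12 h in the fit of 6 arrays were 6, 1 with no filter, and 0 to 5 without 1 array.

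Genes called with Ra at 12 h were 3, and 1 with no filter, 5 with a filter at 7, 1 with mean probe sets, 152 with quantile normalization, 119 centred, 2366 with weights and 1366 in the fit of 6 arrays. With the replicate block within each time there were 0, and 2351 when that block was added to the 6-array fit. Leaving out 1 array gave 0 to 219, the highest without Ra 48 h replicate 2. Of the related genes 14 (weights), 8 (6 arrays) and 12 (6 arrays with the block) were called. With Ra at 48 h 1262 were called, and 327 with no filter, 3013 with quantile normalization, 2863 centred, 5207 with weights, 0 in the fits of 6 and of 5 arrays and 131 with the replicate block in 6 arrays. Leaving out 1 array gave 45 (control 48 h replicate 2) to 2725 (Ra 48 h replicate 1). Related genes called there were 7, and 4 with no filter or without cross-hybridising types, 14 with quantile normalization or centring, 27 with weights, 0 in the fits of 6 and 5 arrays, 2 with the block and 2 to 11 without 1 array. CDH1 and MYO6 lost their calls in 14 and 15 alternatives, RAB5A in 7, MIOX in 5, SALL1 and CDH6 in 3 each and ENPEP in 2, with 0 changes of sign.

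The interaction called 2 genes, and 5 with no filter, 43 with a filter at 7, 12 without cross-hybridising types, 945 with quantile normalization, 856 centred, 17 with robust variance, 4464 with weights, 60 and 36 with the replicate block over all arrays and within times, and 1 to 1041 without 1 array. Control cells over time gave 1955, and 1253, 3712, 3555, 6127 and 3334 with no filter, quantile normalization, centring, weights and 6 arrays, and 788 to 4095 without 1 array. With Ra over time the count was 0, and 1 with no filter, no intensity trend or the block over all arrays, 9 with a filter at 7, 2 without cross-hybridising types, 162, 148 and 733 with quantile normalization, centring and weights, 235 with the block in 6 arrays and 0 to 321 without 1 array. The block within each time gives no contrast between times. Dim probe sets limit the low genes.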
